A study of Mus musculus with 64 samples.

Results

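P2ry12, P2ry13, Tmem119, Sall1, Gpr34, Siglech, Selplg, Olfml3, Slc2a5 and Sparc are marker genes of homeostatic microglia, the resting state of the brain's own macrophages. They were taken by symbol from a table of raw counts, as 10 of its 45708 genes, and all 10 passed the filter on low counts. The table covers 64 RNA libraries of microglia sorted by CD11b and CD45 from whole mouse brain. The mice differ in RISP, a subunit of mitochondrial complex III that Uqcrfs1 encodes, and the labels call them KO, Het or WT. There are 13 KO, 13 Het and 5 WT libraries of naive adults and 3 Het libraries of naive old mice. From adults under Cuprizone, a copper chelator used to cause demyelination, come 6 KO and 4 Het libraries. Adults at PLX3397 Depletion gave 2 KO, 2 Het and 4 WT libraries, and adults at PLX3397 Repopulation gave 4 of each genotype. PLX3397 blocks CSF1R, the receptor microglia need to survive, so depletion libraries come from cells that outlasted it and repopulation libraries from the brain after regrowth. The labels give no age in weeks, dose, day or driver of the deletion, although the table has rows for CreERT2 and tdTomato. They also do not say that replicates are separate animals, so p-values measure the spread between these libraries, which may be technical.

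Microglia settle in the brain before birth, and their resting program is held up by the transcription factors PU.1 and SALL1 and by TGF-beta from the tissue. That program includes receptors that sense nucleotides and lipids from neighbouring cells and surface and secreted proteins that blood monocytes mostly lack. In injury, ageing and degeneration the program is known to decline while an injury-associated program of lipid and lysosome genes rises. P2ry12 and P2ry13 are receptors for ADP. Gpr34 is a receptor for lysophosphatidylserine, and Siglech is a sialic acid lectin. Selplg carries the ligand of P-selectin, and Tmem119 is a membrane protein used to tell microglia from other macrophages. Slc2a5 is the fructose transporter GLUT5, Sall1 is the identity factor, and Olfml3 and Sparc encode secreted matrix proteins. Sparc is also strongly made by endothelial cells.

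On the build GRCm38, several of the genes lie close together. P2ry12 (ENSMUSG00000036353, chr3:59216272-59262871, minus strand) and P2ry13 (ENSMUSG00000036362, chr3:59207892-59210882, minus strand) are 5.389 kb apart with 0 coding genes between them. Tmem119 (ENSMUSG00000054675, chr5:113793729-113800516, minus strand) and Selplg (ENSMUSG00000048163, chr5:113818536-113832644, minus strand) are 18.019 kb apart, again with 0 coding genes between. Olfml3 (chr3:103722222-103738001, minus strand), Slc2a5 (chr4:150119283-150144169, plus strand), Siglech (chr7:55768178-55778925, plus strand) and Sall1 (chr8:89027235-89044162, minus strand) stand alone. So do Sparc (chr11:55394500-55423183, minus strand) and Gpr34 (chrX:13632089-13640858, plus strand). Both P2ry genes overlap Med12l on the opposite strand, P2ry12 also in exons, and Gpr34 lies inside Cask on the opposite strand. The kit marks strand, but the sources used here do not say whether the counting used it. Reads from the overlapping stretches therefore cannot be told apart here. P2ry13 shares no exon bases with Med12l, nor Gpr34 with Cask. Med12l had a median of 452 counts per library, against 35837 for P2ry12 and 13271 for P2ry13, and Cask had 766 against 14803 for Gpr34.

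RefSeq promoters of GRCm38.p6, from 250 bases before to 50 after the start, were found for 7 of the 10 genes. Those of P2ry12, P2ry13 and Slc2a5 are shown because these 3 genes fell together at depletion. Capitals mark GAGGAA, the core bound by PU.1, and GGAAGT, a related motif, on either strand; the motifs can overlap by their shared GGAA. They read in the direction of transcription:
P2ry12, chr3:59262936-59263235, minus strand: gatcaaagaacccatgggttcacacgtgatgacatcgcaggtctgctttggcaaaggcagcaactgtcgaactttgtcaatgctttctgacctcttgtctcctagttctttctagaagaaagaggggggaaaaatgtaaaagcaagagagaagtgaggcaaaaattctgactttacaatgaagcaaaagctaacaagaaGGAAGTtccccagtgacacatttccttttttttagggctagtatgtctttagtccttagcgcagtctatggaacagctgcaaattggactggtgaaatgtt
P2ry13, chr3:59210833-59211132, minus strand: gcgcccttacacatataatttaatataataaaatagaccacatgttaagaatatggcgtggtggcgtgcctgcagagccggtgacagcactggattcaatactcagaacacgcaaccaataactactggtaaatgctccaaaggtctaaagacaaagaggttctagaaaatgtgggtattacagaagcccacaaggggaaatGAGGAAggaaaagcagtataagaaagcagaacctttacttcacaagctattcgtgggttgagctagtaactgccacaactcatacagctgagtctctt
Slc2a5, chr4:150119094-150119393, plus strand: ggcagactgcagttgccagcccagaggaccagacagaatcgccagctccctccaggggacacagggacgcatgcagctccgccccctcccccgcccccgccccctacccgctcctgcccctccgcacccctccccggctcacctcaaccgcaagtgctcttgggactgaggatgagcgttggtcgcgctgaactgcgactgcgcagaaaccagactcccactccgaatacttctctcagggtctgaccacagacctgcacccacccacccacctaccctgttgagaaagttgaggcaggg
P2ry12 holds 1 GGAAGT, P2ry13 holds 1 GAGGAA, and the window of Slc2a5 holds 0 of either. Among 32851 promoters of the same length 28.3% hold GAGGAA and 23.8% hold GGAAGT, against 2 and 3 of the 7 genes here. TGTGGT, bound by RUNX factors, is in 16.8% of promoters and in 4 of the 7 genes, CAGACA in 21.0% and 3 of the 7, and TGACTCA of AP-1 in 5.2% and 0 of the 7. Both strands were searched, and a match describes the letters only.

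The smallest library held 2.7 M counts, the median one 11.9 M and the largest 24.0 M. Levels of individual genes are given as CPM, counts relative to the library's total after scaling by the trimmed mean method of edgeR. Summed levels of other cells' markers, of dissociation response genes and of Y-linked genes are relative to the unscaled total, and are also written as CPM. These sums and the levels of individual genes are not on the same scale. Differences between groups in the sums therefore leave that scaling out. The libraries stand in 4 sets that the labels do not name. In 34 libraries the noncoding transcripts Gm26917 and Yam1 took 0.069 to 0.276% of counts (the ncRNA-poor set: every WT and PLX3397 library, naive KO 1 to 5 and naive Het 1 to 4). In the other 30 they took 2.216 to 13.56%, and these divide by depth into a middle set of 13 (naive KO 6 to 11, Het 5 to 11), a deep set of 7 (naive KO and Het 12 and 13, old Het) and a shallow set of 10 (cuprizone). By Y-linked genes 41 libraries were male and 23 female, unevenly between groups. In the naive ncRNA-poor set WT had 5 male and 0 female libraries, KO 4 and 1 and Het 1 and 3. At repopulation WT had 2 male and 2 female, KO 3 and 1 and Het 1 and 3. Under cuprizone KO had 2 male and 4 female and Het 2 and 2. Uqcrfs1 was lower in KO than in Het in each set, without overlap. In naive libraries it stood at 5.33 to 9.32 CPM in KO against 19 to 37.7 in Het and 34.4 to 43.9 in WT (ncRNA-poor), 1.24 to 3.7 against 9.16 to 18 (middle) and 2.67 to 2.82 against 11.4 to 12.7 (deep). Under cuprizone it was at most 1.47 CPM in KO, from 0 to 5 counts a library, and 10.3 to 12.9 CPM in Het. At depletion it was at 9.1 to 13.5 in KO, 30.6 to 51.8 in Het and 36.3 to 62.1 in WT, and at repopulation at 6.57 to 10.9, 29 to 35.9 and 46.8 to 65.5. All of the following differences are log2 fold changes ± standard error from edgeR's quasi-likelihood test, made inside a set where one holds both groups, and a gene is said to rise or fall where its adjusted p over 18413 genes is under 0.05.

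All 10 genes were read in every library, and the lowest value of any was 129.9 CPM, of Slc2a5 in old Het replicate 3. Together they took 2.602 to 3.018% of all counts in naive WT libraries. Per kilobase of exon, Tmem119 stood first in naive WT microglia at 1974.6 ± 219 CPM per kb (SD, n = 5), and its range overlapped that of P2ry12 (1704.6 ± 168). Sparc followed at 1207 ± 82.3, clear of both neighbours. P2ry13 (880.2 ± 95.8), Selplg (865 ± 102) and Gpr34 (712 ± 64.8) formed a run in which each range overlapped the next. Olfml3 (469.8 ± 34) and Slc2a5 (255 ± 32.4) each stood clear of their neighbours, and Sall1 (191 ± 18) and Siglech (174 ± 18.5) came last with overlapping ranges.

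**Figure D1:**
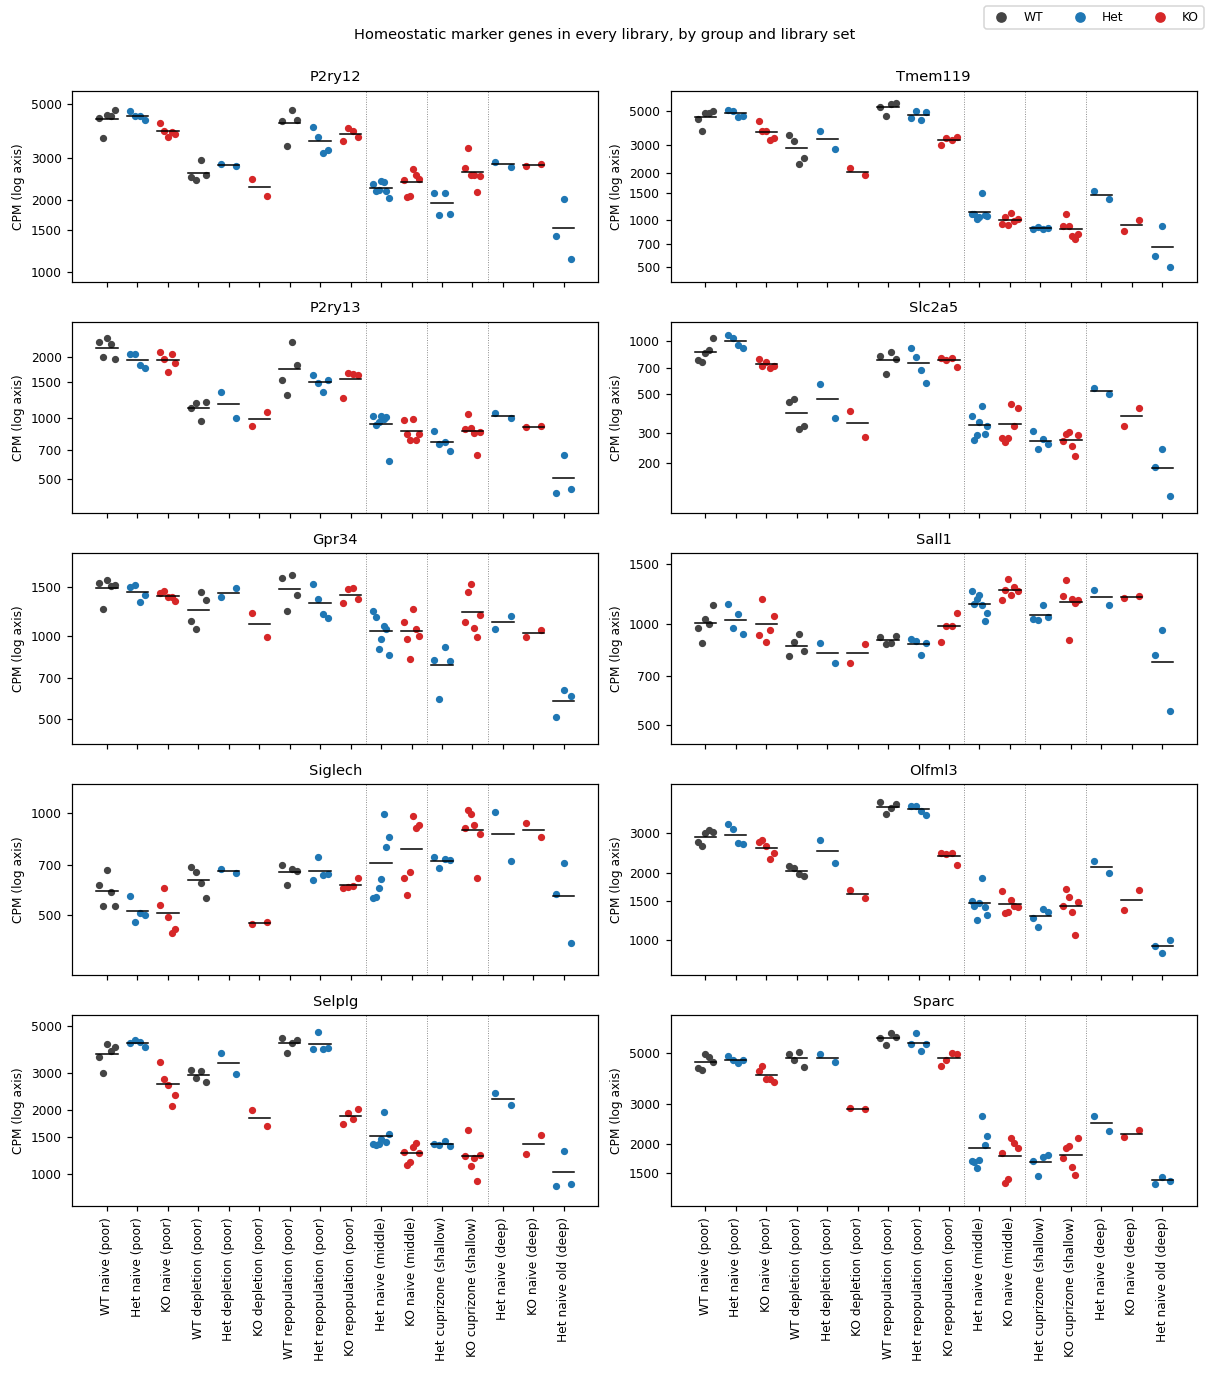
CPM of each marker gene (log axis) in all 64 libraries, by group, with the library set in brackets; points are libraries, horizontal lines group means, and dotted lines part the sets. Tmem119 and Slc2a5 show the widest steps between sets, old Het libraries have the lowest mean of the deep set in all 10 panels, and the group means of Sall1 and Siglech lie closest together.

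The levels depended on the library set, and so values are compared only inside one. In naive Het microglia Tmem119 averaged 4811 CPM in the ncRNA-poor set and 1124 in the middle set, a ratio of 4.28. The ratio was 3.02 for Slc2a5, 2.77 for Selplg, 2.43 for Sparc, 2.06 for P2ry13, 2.02 for Olfml3, 2 for P2ry12 and 1.39 for Gpr34, each with ranges apart. Sall1 (0.898) and Siglech (0.717) had ranges that overlapped. Whether these steps come from library making, from sequencing or from the mice was not tested.

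In naive adults Selplg and Tmem119 were lower without RISP. Against Het, 2 of the 10 genes fell and 0 rose, with a median of -0.12 against 0.02 over all genes; 7.64% of all genes fell in this comparison. Selplg, the selectin ligand, held 4166, 4294, 4205 and 3991 CPM in the 4 ncRNA-poor Het libraries and 3363, 2816, 2627, 2085 and 2364 in the 5 KO libraries. In the deep set it held 2402 and 2107 in Het and 1235 and 1529 in KO. Its KO and Het ranges did not overlap in these sets. In the middle set Het libraries held 1364 at the lowest, 1421 at the median and 1954 at the highest, and KO libraries 1095 at the lowest, 1260.2 at the median and 1399 at the highest, with overlap. Over the 3 sets Selplg fell by 0.47 on the log2 scale (-0.47 ± 0.07, adjusted p = 1.93e-06). By set the difference was -0.65 ± 0.12 (ncRNA-poor, adjusted p = 0.000588), -0.27 ± 0.10 (middle, adjusted p = 0.0692) and -0.71 ± 0.18 (deep, adjusted p = 0.0527). In bulk RNA, fewer cells of a type and less RNA per cell cannot be told apart.

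Tmem119, its neighbour on chromosome 5, fell with it (-0.32 ± 0.07, adjusted p = 0.00102). In the ncRNA-poor set Het libraries held 5072, 4984, 4587 and 4603 CPM of Tmem119 and KO libraries 4278, 3731, 3705, 3254 and 3358, apart from each other. Deep Het libraries held 1534 and 1368 and KO libraries 850.3 and 1008, and the middle set overlapped (1018 to 1482 and 930.5 to 1116). By set Tmem119 stood at -0.39 ± 0.12 (ncRNA-poor), -0.64 ± 0.18 (deep) and -0.16 ± 0.10 (middle), and it passed in no single set. The fructose transporter Slc2a5 did not pass (-0.22 ± 0.09 over the 3 sets, adjusted p = 0.09). It held 917 to 1082 CPM in Het against 700.1 to 792 in KO of the ncRNA-poor set and 499 to 542 against 329 to 414 in the deep set, and overlapped in the middle set.

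None of the receptors passed. P2ry12 stood at -0.04 ± 0.07, P2ry13 at -0.08 ± 0.08, Gpr34 at -0.04 ± 0.07 and Siglech at 0.07 ± 0.08, and the 95% interval of P2ry12 was -0.16 to 0.09. Sall1 was at 0.05 ± 0.06, with an interval of -0.06 to 0.17. The matrix genes Olfml3 (-0.15 ± 0.06, adjusted p = 0.0799) and Sparc (-0.16 ± 0.07, adjusted p = 0.104) did not pass here. With DESeq2's size factors Olfml3 (-0.18), Sparc (-0.19) and Slc2a5 (-0.26) passed as well, and leaving out KO replicate 1 gave the same count of 5. The KO minus Het difference was compared between the middle and ncRNA-poor sets: 0 of 10 genes passed that test in edgeR (3 at an unadjusted p under 0.05, 0 by DESeq2, 0.543% of all genes), with Selplg at 0.38 ± 0.16 and Slc2a5 at 0.44 ± 0.20. By the labels, untreated KO and WT mice were read on one sequencer model and other samples on another, not given per library. If this holds for each library, sequencer cannot be told apart from genotype in naive KO or WT against Het, nor from treatment where treated KO or WT libraries are set against naive ones.

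Among 35 other homeostatic microglia genes 4 rose and 15 fell in naive KO against Het. The sialic acid lectin Siglece (-0.68 ± 0.08), the oxysterol receptor Gpr183 (-0.58 ± 0.08) and the orphan receptor Gpr165 (-2.15 ± 0.23) led those that fell, with Upk1b (-1.13 ± 0.16). Of 25 identity regulators 13 fell, led by the TGF-beta receptor Tgfbr1 (-0.34 ± 0.05) and its ligand Tgfb1 (-0.27 ± 0.05), and Bhlhe41 (0.38 ± 0.09) rose. In purinergic signalling 1 of 15 genes rose, P2ry2 (2.18 ± 0.25), a receptor for UTP and ATP, and 3 fell, among them the UDP receptor P2ry6 (-0.34 ± 0.06). Of 8 hexose genes 2 rose, the fructose kinase Khk (0.71 ± 0.10) and the glucose transporter Slc2a1 (0.47 ± 0.11). Injury-associated genes gave 18 higher and 2 lower of 27, where 1699 of all 18413 genes were higher and 1407 lower, and the protease gene Ctsb (0.76 ± 0.09) was among the higher. Genes known to respond to tissue dissociation gave 16 lower of 23, and their summed level in the middle set was 1708 to 3974 CPM in KO against 6931 to 16210 in Het. In the ncRNA-poor set it was 2300.0 to 14160 against 6011 to 7082. The mitochondrial ribosomal transcript mt-Rnr2 took 10.2 to 16.4% of counts in KO and 3.6 to 5.98% in Het of the middle set, 18.8 to 20% and 4.48 to 5.95% in the deep set, and 0.209 to 0.402% and 0.206 to 0.405% in the ncRNA-poor set. Border macrophage marker sums in that set were 939.2 to 2046 CPM in KO and 2084 to 2782 in Het, with 2 of 14 markers lower over the 3 sets. The part of each in the members' differences was not tested.

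Against WT in the ncRNA-poor set only Selplg fell, 1 of 10 against 0.787% of all genes (-0.48 ± 0.12, adjusted p = 0.0135). WT libraries held 3574, 3006, 4097, 3801 and 3999.7 CPM, so KO replicate 1 lay inside the WT range and the other 4 KO libraries below it. Leaving out KO replicate 4 (-0.40, adjusted p = 0.103), KO replicate 5 (adjusted p = 0.0611) or WT replicate 3 (adjusted p = 0.0547) ended the call, as did fitting the 10 libraries alone (-0.49, adjusted p = 0.105). Tmem119 stood at -0.32 ± 0.12 (adjusted p = 0.185), and it passed without KO replicate 1 (adjusted p = 0.0498) and by DESeq2 (adjusted p = 0.0342). The other 8 genes lay between -0.23 and 0.00. This comparison and the one with Het share the ncRNA-poor KO libraries. Of the other homeostatic genes 8 of 35 fell against WT, led by Siglece (-0.70 ± 0.13) and Gpr183 (-0.62 ± 0.13). Marker sums of other cells differed between KO and WT without overlap: border macrophage sums were 939.2 to 2046 CPM in KO and 2207 to 3970 in WT (1 of 14 markers lower), and monocyte sums 36.9 to 123.9 and 131.1 to 225.8 (1 of 11 lower). Their part in Selplg was not tested. Het against WT gave 0 of 10 in edgeR (0 at an unadjusted p under 0.05, 0 by DESeq2, and 0.0217% of all genes in either direction), with values from -0.20 for P2ry13 to 0.21 for Slc2a5.

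**Figure D2:**
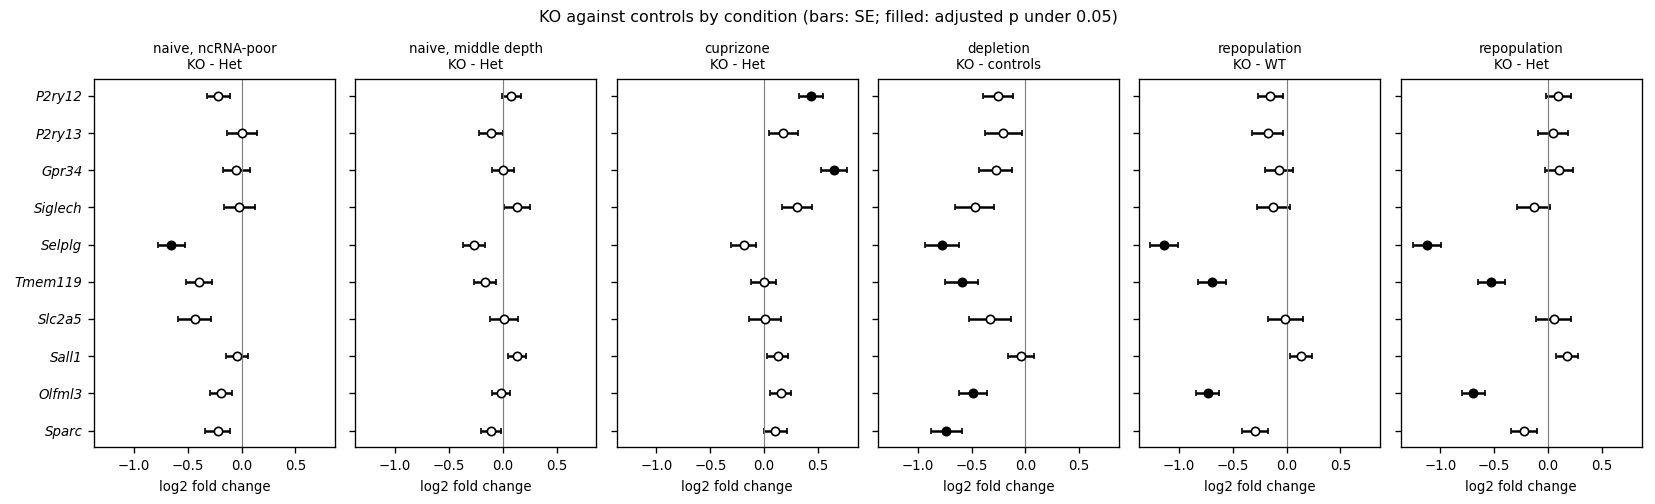
KO minus control log2 fold change of the 10 genes (x axis; points with bars of 1 standard error) in 6 panels: naive ncRNA-poor, naive middle, cuprizone, depletion (against the mean of Het and WT) and repopulation against WT and against Het; filled points passed. Selplg lies left of 0 in all 6 panels and passed in 4, while P2ry12 and Gpr34 passed to the right of 0 under cuprizone.

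Under cuprizone 2 of the 10 genes were higher in KO than in Het microglia, where 8.16% of all genes were higher. Gpr34, the lysophosphatidylserine receptor, held 817, 588, 911 and 808 CPM in the 4 Het libraries and 991 at the lowest, 1151 at the median and 1542 at the highest in the 6 KO libraries. The ADP receptor P2ry12 held 2138, 1727, 2146 and 1752 in Het and 2157 at the lowest, 2536 at the median and 3281 at the highest in KO. Neither pair of ranges overlapped, although P2ry12 came close. Gpr34 was higher by 0.65 ± 0.12 (adjusted p = 9.36e-05) and P2ry12 by 0.44 ± 0.11 (adjusted p = 0.00338). Siglech pointed the same way without passing (0.31 ± 0.14, adjusted p = 0.147), Selplg was at -0.19 ± 0.12, and Tmem119 (0.00 ± 0.12) and Slc2a5 (0.01 ± 0.15) stood near 0. In the 10 libraries fitted alone neither passed (Gpr34 0.58, adjusted p = 0.0625; P2ry12 0.36, adjusted p = 0.197), and the fit over all libraries shares its estimate of the spread. Het 3 and 4 and KO 5 and 6 had a lower share of the noncoding transcripts than the other cuprizone libraries, and with a term for it both genes still passed (Gpr34 0.65, P2ry12 0.41).

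Dissociation response genes moved with this comparison: 19 of 23 were lower in KO, led by Klf6 (-2.56 ± 0.23) and Klf4 (-4.35 ± 0.46), and their summed level was 2343 to 16500 CPM in KO against 29620 to 54700 in Het. The transcript mt-Rnr2 took 7.1 to 11.8% of counts in KO and 2.43 to 5.01% in Het. Their part in the result was not tested. Of the other homeostatic genes 6 of 35 rose and 5 fell, with the lipid receptor Trem2 (0.69 ± 0.14) up and Gpr165 (-2.53 ± 0.39) and Nav3 (-1.07 ± 0.22) down. Among identity regulators Bhlhe41 (0.63 ± 0.15) rose and 6 of 25 fell, led by the TGF-beta inhibitor Smad7 (-1.05 ± 0.16) and Cebpa (-0.94 ± 0.16). Injury-associated genes gave 9 higher and 3 lower of 27, with Ctsb (1.11 ± 0.15) and Ctsd (0.89 ± 0.15), proteases of the lysosome, in front. Of all genes 8.16% were higher. The share of all genes that were lower is not given here, so the counts of lower genes do not set these lists apart.

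No library set holds both cuprizone and naive libraries, so cuprizone and the set cannot be told apart against naive mice. The nearest naive libraries, those of the middle set, were used. In Het microglia 2 of 10 genes were lower under cuprizone, where 5.76% of all genes were and the median gene lay at -0.16. Gpr34 stood at 850.2 to 1233 CPM in naive Het libraries and 588 to 911 under cuprizone (-0.41 ± 0.12, adjusted p = 0.0181), with overlap. Tmem119 stood at 1018 to 1482 and 871 to 898 (-0.35 ± 0.12, adjusted p = 0.0481), without overlap. The Gpr34 call ended without Het cuprizone replicate 2 (-0.29, adjusted p = 0.142). The Tmem119 call ended without any 1 of Het naive 5, 6, 9 or 10 or of the 4 cuprizone libraries (adjusted p 0.0529 to 0.129), and 0 genes passed when all libraries were thinned to the smallest total. In KO microglia 0 of 10 passed in edgeR (2 at an unadjusted p under 0.05, 0 by DESeq2, 5.63% of all genes), from -0.30 for Slc2a5 to 0.24 for Gpr34. The test of the 2 responses against each other called 0 of 10 in edgeR (2 at an unadjusted p under 0.05, 1 by DESeq2, 0.179% of all genes). Gpr34 came closest (0.65 ± 0.16, adjusted p = 0.0621), and DESeq2 (0.61, adjusted p = 0.0142) called it.

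Microglia that remained at PLX3397 depletion had lower levels of the ADP receptors, Slc2a5 and Tmem119 in all 3 genotypes. By the labels, sequencer and treatment cannot be told apart here in WT and KO, at depletion or repopulation, while naive and treated Het libraries share a model. In WT microglia 5 of 10 genes fell against naive, with a median of -0.42 against 0 over all genes; 1.46% of all genes fell. P2ry12 held 4378, 3612, 4524, 4459 and 4726 CPM in the 5 naive libraries and 2486, 2430, 2935 and 2534 in the 4 depletion libraries (-0.74 ± 0.11, adjusted p = 1.19e-05). P2ry13 held 2372, 1991, 2489.9, 2326 and 1946 and 1118, 1186, 971 and 1206 (-0.99 ± 0.14, adjusted p = 2.42e-06). For both the ranges did not overlap. Slc2a5 changed most, from 787, 764, 856, 891 and 1042 to 451, 469.6, 315 and 329 (-1.15 ± 0.16, adjusted p = 1.97e-06). Tmem119 fell from 4439, 3737, 4869, 4862 and 4949 to 3515, 3205, 2293 and 2476 (-0.67 ± 0.12, adjusted p = 0.000357). The secreted Olfml3 fell from 2726, 2616, 3007, 3089 and 3034 to 2146, 2091, 1968 and 1925 (-0.51 ± 0.10, adjusted p = 0.00116). These ranges did not overlap either, and each of the 5 calls held with any 1 library left out and in the 9 libraries fitted alone.

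The other 5 genes did not pass in WT. Gpr34 was at -0.26 ± 0.12, Selplg at -0.33 ± 0.12, Sall1 at -0.22 ± 0.10, Siglech at 0.11 ± 0.14 and Sparc at 0.05 ± 0.11, and the interval of Sparc was -0.17 to 0.28. For Sparc, which endothelial cells also make, endothelial marker sums stood at 532 to 826.9 CPM in naive and 154.7 to 497.7 in depletion WT libraries, and the part of this in Sparc was not tested.

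In Het microglia 4 of 10 genes fell (2.42% of all genes did): P2ry12 (-0.68 ± 0.15), P2ry13 (-0.72 ± 0.18), Tmem119 (-0.55 ± 0.16) and Slc2a5 (-1.10 ± 0.21). Its 2 depletion libraries held 2814 and 2779 CPM of P2ry12 and 573 and 364 of Slc2a5, against naive ranges of 4325 to 4681 and 917 to 1082. Olfml3 was at -0.24 ± 0.13, and Siglech pointed upward at 0.40 ± 0.18 without passing. In KO microglia 5 of 10 fell (0.668% of all genes did): P2ry12 (-0.78 ± 0.14), P2ry13 (-0.96 ± 0.18), Tmem119 (-0.85 ± 0.16), Slc2a5 (-1.12 ± 0.21) and Olfml3 (-0.68 ± 0.13). KO depletion libraries held 2436 and 2074 CPM of P2ry12 and 397 and 283 of Slc2a5, against 3646 to 4168 and 700.1 to 792. These groups hold 2 depletion libraries each: without Het depletion replicate 2 the count was 0, without KO depletion replicate 2 it was 1, and in the 7 KO libraries fitted alone it was 2. The KO and WT responses were compared directly, and 0 of 10 genes passed in edgeR (1 at an unadjusted p under 0.05, 0 by DESeq2, 0.0% of all genes), with Sparc farthest from 0 at -0.54 ± 0.18 (adjusted p = 0.702).

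Other homeostatic genes fell at depletion in WT and KO and moved both ways in Het. In WT 0 rose and 7 fell of 35, in KO 0 rose and 4 fell. Those of WT were led by Siglece (-0.92 ± 0.14), Rnase4 (-0.55 ± 0.11) and Gas6 (-0.65 ± 0.14). In Het 7 rose, such as Trem2 (0.87 ± 0.18) and the complement gene C1qb (0.88 ± 0.20), while 5 fell. Among the regulators of WT microglia the ETS factor Etv5 (-1.11 ± 0.18) fell, and Cebpa (0.77 ± 0.17) rose. Injury-associated genes gave 13 higher and 1 lower of 27, against 261 and 268 of 18413 genes, led by the tetraspanin Cd63 (1.17 ± 0.18) and Ctsb (0.88 ± 0.15). Of the hexose genes 0 of 8 passed in any of the 3 genotypes, although Slc2a5, not counted among them, fell. Markers of border macrophages, which also carry CD11b and CD45, gave 11 lower of 14 in WT, led by Lyve1 (-4.62 ± 0.68) and Mrc1 (-2.70 ± 0.49). Their summed level was 2207 to 3970 CPM in naive and 686.9 to 1228 in depletion libraries, with 0 of 14 markers at 0 throughout, and its part in the members' differences was not tested.

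**Figure D3:**
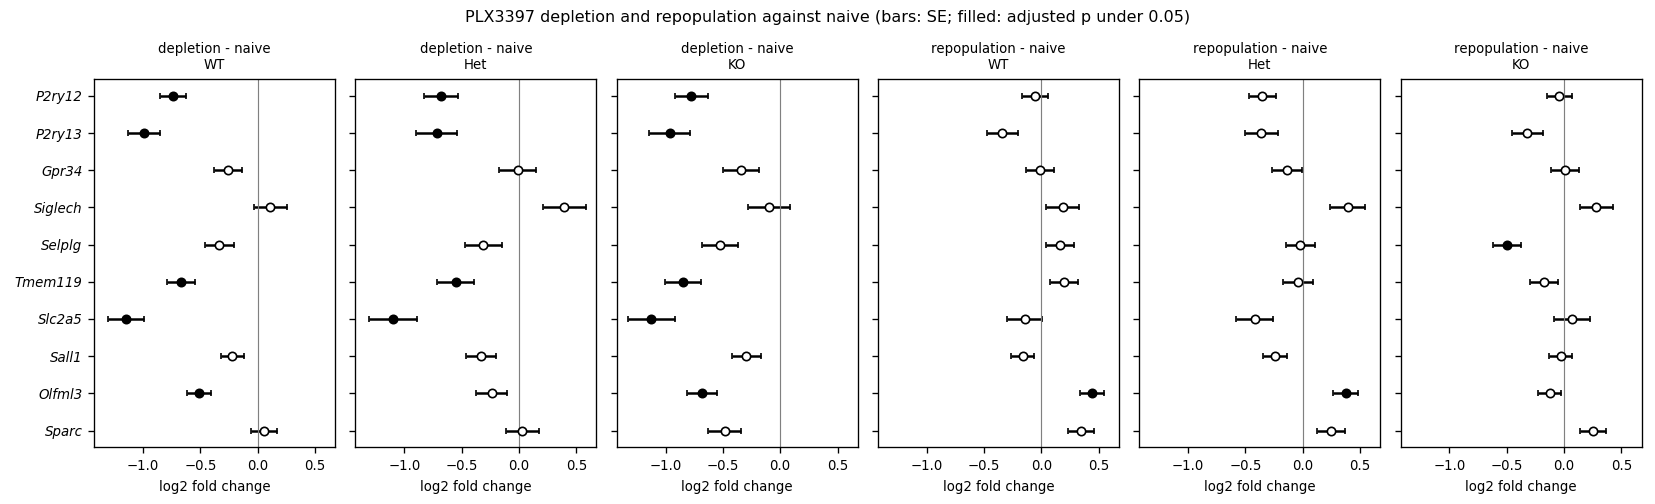
Log2 fold change against naive (x axis; points with bars of 1 standard error) of the 10 genes at depletion (left 3 panels) and repopulation (right 3 panels) in WT, Het and KO; filled points passed. P2ry12, P2ry13, Tmem119 and Slc2a5 passed left of 0 at depletion in each genotype, and at repopulation only Olfml3 (right of 0 in WT and Het) and Selplg (left of 0 in KO) passed.

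After repopulation Olfml3 stood above its naive level in WT and Het, and Selplg below it in KO. In WT, repopulated against depleted microglia had 6 of 10 genes higher (2.6% of all genes were). Olfml3 rose from 2146, 2091, 1968 and 1925 CPM to 4137, 3639.9, 3893 and 4052 (0.95 ± 0.11, adjusted p = 2.20e-08). Slc2a5 rose from 451, 469.6, 315 and 329 to 821, 654, 865 and 795 (1.00 ± 0.16), and Tmem119 from 3515, 3205, 2293 and 2476 to 5279.8, 4608, 5506 and 5612 (0.87 ± 0.13). P2ry12 (0.68 ± 0.12), P2ry13 (0.65 ± 0.14) and Selplg (0.50 ± 0.13) rose too, and the ranges of all 6 were apart. The P2ry13 call ended without WT repopulation replicate 3 (adjusted p = 0.0649), which held the highest value, 2362 CPM, and in the 8 libraries fitted alone (adjusted p = 0.0649). The Selplg call ended without WT depletion replicate 4 (adjusted p = 0.0603) or WT repopulation replicate 4 (adjusted p = 0.0525).

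Against naive WT, 1 of 10 genes was higher, Olfml3, where 2.23% of all genes were. It held 2616 to 3089 CPM in naive and 3639.9 to 4137 in repopulated libraries (0.44 ± 0.10, adjusted p = 0.00368). Sparc was at 0.35 ± 0.11 (adjusted p = 0.0841), with ranges apart, and it passed in the 9 libraries fitted alone (adjusted p = 0.0117). P2ry13 was at -0.34 ± 0.14, and without repopulation replicate 3 it stood at -0.52 and passed (adjusted p = 0.0249). These comparisons share the naive and the repopulation libraries with the ones above. In Het, 1 of 10 genes was higher, again Olfml3, where 3.28% of all genes were. Repopulated Het libraries held 3958, 3941, 3773 and 3617 CPM against 3302, 3112, 2698 and 2676 in naive ones (0.38 ± 0.11, adjusted p = 0.0238), and the call ended without Het repopulation replicate 1 or 2 or naive replicate 3 or 4 (adjusted p 0.0629 to 0.0706). P2ry12 was at -0.35 ± 0.12, P2ry13 at -0.36 ± 0.14, Slc2a5 at -0.42 ± 0.16 and Sall1 at -0.24 ± 0.11 in Het, without passing. Sparc (0.25 ± 0.12) and Siglech (0.39 ± 0.15) pointed upward in Het, also without passing. The ranges of all of these were apart from naive Het, while those of Gpr34, Selplg and Tmem119 overlapped. Slc2a5 was only just apart, at most 916.62 CPM in repopulated and at least 917.05 in naive Het libraries. With the compared Het libraries fitted alone more of the 10 genes passed, as counted in the closing section.

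In KO, Selplg was lower than in naive KO microglia, 1 of 10 against 1.04% of all genes. It held 3363, 2816, 2627, 2085 and 2364 CPM in naive and 1723, 1946, 1825 and 2033 in repopulated KO libraries (-0.49 ± 0.12, adjusted p = 0.0108). The ranges were apart, and the call ended without KO naive replicate 1 (-0.38, adjusted p = 0.0947) and in the 9 libraries alone (adjusted p = 0.0577). Olfml3 stood at -0.13 ± 0.10 in KO, against its rise in WT and Het. Sparc (0.25 ± 0.11) and P2ry13 (-0.32 ± 0.14) did not pass in KO, though their ranges were apart. The KO and WT responses to repopulation were compared directly, and 0 of 10 genes passed in edgeR (3 at an unadjusted p under 0.05, 2 by DESeq2, 0.038% of all genes). Selplg was at -0.66 ± 0.17 (adjusted p = 0.232), Olfml3 at -0.57 ± 0.14 (adjusted p = 0.189) and Tmem119 at -0.37 ± 0.17. DESeq2 called Selplg (adjusted p = 0.0253) and Olfml3 (adjusted p = 0.0062).

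Among other homeostatic genes 4 rose and 2 fell of 35 in repopulated against naive WT, with Tyrobp (0.64 ± 0.19), the signalling partner of several microglial receptors, up and Gas6 (-0.62 ± 0.14) down, and in KO 0 rose and 6 fell, led by Siglece (-0.92 ± 0.14). Border macrophage markers gave 13 lower of 14 in WT, led by Mrc1 (-4.05 ± 0.52) and F13a1 (-3.97 ± 0.54), 12 in Het and 10 in KO. Their summed level in repopulated libraries was 505.7 to 986 CPM in WT, 685.7 to 1074 in Het and 421.4 to 714.8 in KO, and their part in the members' differences was not tested.

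RISP-deficient microglia had lower Selplg, Tmem119 and Olfml3 than controls at both PLX3397 stages. At depletion 4 of 10 genes were lower in KO than in the mean of Het and WT, where 0.614% of all genes were. Selplg held 1996 and 1681 CPM in KO, 3742 and 2979 in Het and 3106, 2842, 3071 and 2715 in WT (-0.77 ± 0.16, adjusted p = 0.00302). Sparc held 2877 and 2842, 4975 and 4557 and 4941, 4662, 5058 and 4326 (-0.73 ± 0.15, adjusted p = 0.00248). Both KO values lay below every control in each gene. Tmem119 held 2140.3 and 1931 in KO against 2293 to 3515 in WT and 2859 to 3702 in Het (-0.59 ± 0.16, adjusted p = 0.0298). Olfml3 held 1676 and 1543 against 1925 to 2146 and 2202 to 2794 (-0.49 ± 0.13, adjusted p = 0.0327). These calls rest on 2 KO libraries: without KO depletion replicate 1 the count was 0, without replicate 2 it was 0, and without Het depletion replicate 1 or WT depletion replicate 1 Tmem119 and Olfml3 no longer passed. Endothelial marker sums were 166.3 to 231.5 CPM in KO, inside the control range of 138.6 to 497.7. Border macrophage sums were 374.4 to 623.3 CPM in KO and 686.9 to 1392 in the controls, and their part was not tested.

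At repopulation 3 of 10 genes were lower in KO than in WT (2.53% of all genes were) and 3 of 10 lower than in Het (2.48%). The KO libraries are shared between these comparisons. Selplg held 1723, 1946, 1825 and 2033 CPM in KO, 4376, 3736, 4161 and 4284 in WT and 3879, 4706, 3893 and 3934 in Het. It fell by more than any other member against either control (-1.14 ± 0.13, adjusted p = 1.30e-08, against WT and -1.12 ± 0.13, adjusted p = 2.01e-08, against Het). Olfml3 held 2445, 2409, 2437 and 2173 in KO, 4137, 3639.9, 3893 and 4052 in WT and 3958, 3941, 3773 and 3617 in Het (-0.73 ± 0.11 and -0.69 ± 0.11). Tmem119 held 3032, 3328, 3245 and 3394 in KO, 5279.8, 4608, 5506 and 5612 in WT and 4494, 4956, 4368 and 4889 in Het (-0.69 ± 0.13 and -0.53 ± 0.13). None of these KO ranges touched a control range, and all 6 calls held with each library left out in turn and in the libraries fitted alone. Sparc stood at -0.29 ± 0.12 and -0.22 ± 0.12 without passing, though its KO libraries (4409 to 5025 CPM) lay below both control ranges (5427 to 6118 and 5099 to 6104). Endothelial marker sums were 68 to 155.9 CPM in KO, 173.4 to 320.5 in WT and 127.3 to 329.1 in Het, and their part in Sparc was not tested.

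The receptors and the transporter did not pass at repopulation. Against WT, P2ry12 was at -0.15 ± 0.12, P2ry13 at -0.18 ± 0.14, Gpr34 at -0.07 ± 0.13, Siglech at -0.12 ± 0.15 and Slc2a5 at -0.01 ± 0.16, with an interval of -0.33 to 0.31. Sall1 was at 0.13 ± 0.11. Het against WT gave 0 of 10 in edgeR (1 at an unadjusted p under 0.05, 0 by DESeq2, 0.0% of all genes), from -0.25 for P2ry12 to 0.01 for Siglech. Other homeostatic genes gave 1 higher and 15 lower of 35 against WT and 1 and 16 against Het. Siglece (-1.53 ± 0.15 against WT), the secreted ribonuclease Ang (-1.20 ± 0.15), Gpr183 (-1.02 ± 0.14) and Upk1b (-1.99 ± 0.29) led them. Of identity regulators Tgfb1 (-0.47 ± 0.09) and Tgfbr1 (-0.40 ± 0.10) fell against WT, 2 of 25. Among purinergic genes P2ry6 (-0.70 ± 0.11) and the adenosine receptor Adora3 (-0.58 ± 0.13) fell and P2ry2 (2.10 ± 0.43) rose, of 15 tested. Injury-associated genes gave 3 higher and 3 lower of 27 against WT.

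Old Het microglia had lower levels of the members than adult Het microglia. Against adult Het replicates 12 and 13 of the same set, 9 of the 10 genes fell, where 2.25% of all genes fell. All 10 had lower values without overlap. The share of all genes without overlap was not counted, so this does not set the members apart from other genes. The median was -0.98 against 0.02 over all genes. The members took 0.501 to 0.895% of all counts in old and 1.574 to 1.69% in adult libraries. Slc2a5 changed most, from 542 and 499 CPM in the adult libraries to 189, 241 and 129.9 in the 3 old ones (-1.48 ± 0.21, adjusted p = 2.01e-06). P2ry12 went from 2882 and 2749 to 1411, 2020.3 and 1140.1 (-0.89 ± 0.15, adjusted p = 3.89e-05), P2ry13 from 1058 and 999 to 428, 656 and 447 (-1.01 ± 0.18). Gpr34 went from 1059 and 1174 to 505, 636 and 602 (-0.94 ± 0.17). Old replicate 2 was the highest of the 3 old libraries in each of these 4 genes.

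Selplg went from 2402 and 2107 CPM to 878, 1281 and 893 (-1.15 ± 0.16, adjusted p = 2.46e-06) and its neighbour Tmem119 from 1534 and 1368 to 591, 911 and 503 (-1.12 ± 0.16). Of the secreted proteins, Olfml3 went from 2258 and 1988 to 945, 876 and 1004 (-1.17 ± 0.14) and Sparc from 2653 and 2286 to 1339, 1442 and 1384 (-0.83 ± 0.15). These 2 varied least among the old libraries. Sall1 fell least of the called genes (-0.63 ± 0.13, adjusted p = 0.00121), and its call ended without old replicate 3 (adjusted p = 0.0768) or adult replicate 12 (adjusted p = 0.0714). Siglech did not pass (-0.61 ± 0.19, adjusted p = 0.0505), with 1010.4 and 722 CPM in adults and 574, 713 and 413 in old libraries. Old replicate 3 had 28.6 CPM of Y-linked genes against 125 to 183 in the other 6 libraries of the set, all read as male; without it 8 of 10 genes passed. In the 5 libraries fitted alone 0 of 10 passed, with adjusted p from 0.0869 for Olfml3 to 0.32 for Sall1 among the 9 (9 of 10 at an unadjusted p under 0.05), and only 10 genes of the whole table passed there.

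Of the other homeostatic genes 20 of 35 fell and 0 rose in old microglia, led by the transporter Slco2b1 (-0.97 ± 0.14), Siglece (-1.21 ± 0.19) and Gpr165 (-3.17 ± 0.50). Identity regulators gave 5 lower of 25, among them Maf (-0.86 ± 0.13), Csf1r (-0.70 ± 0.12) and Tgfbr1 (-0.66 ± 0.12). Injury-associated genes gave 24 higher and 0 lower of 27, against 574 and 414 of 18413 genes, such as the integrin Itgax (4.47 ± 0.47), the galectin Lgals3 (5.44 ± 0.57) and the lectin Clec7a (5.44 ± 0.59). Among purinergic genes 4 rose and 3 fell of 15, with the ectonucleotidase Enpp1 (1.03 ± 0.25) up and Adora3 (-0.89 ± 0.16) down. Monocyte marker sums were 216.9 to 345.1 CPM in old and 89.6 to 110.2 in adult libraries, with 1 of 11 called higher, Fn1 (3.35 ± 0.79), and 0 of 11 at 0 throughout the old libraries; the monocyte receptor Ccr2 (-1.26 ± 0.65) did not pass. The ribosomal transcript mt-Rnr2 took 7 to 21.2% of counts in old and 4.48 to 5.95% in adult libraries. Their parts in the result were not tested.

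**Figure D4:**
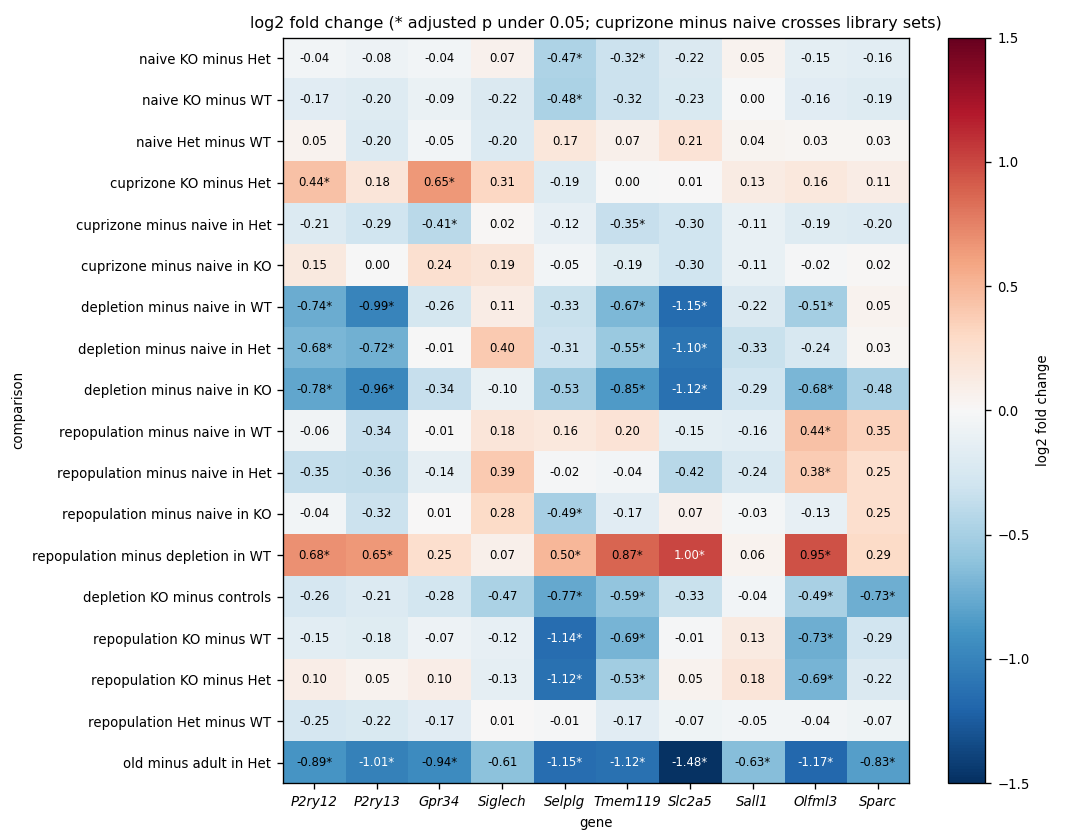
Log2 fold change (colour and printed value; * passed) of the 10 genes (columns) in 18 comparisons (1 per line), made inside library sets except cuprizone against naive. The bottom line, old against adult, is negative in all 10 columns and passed in 9, the 3 lines of depletion against naive share 4 called columns (P2ry12, P2ry13, Tmem119, Slc2a5), and the called KO effects at the PLX3397 stages sit in Selplg, Tmem119, Olfml3 and Sparc.

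Around the means of their group and set, the members varied together across the 64 libraries. All 45 pairs had a positive Pearson r on log2 CPM, from 0.01 to 0.77 with a median of 0.47; the points share library scaling and depth, so this is a description. With the mean of the other 9, Selplg (0.80), P2ry12 (0.79) and Tmem119 (0.76) followed most closely, and Gpr34 (0.48) and Sall1 (0.32) least. Outside the list, the genes most like the members' mean on the same measure were Sash3 (0.80), Lgmn (0.79), Slco2b1 (0.77), Lpcat2 (0.76), Cmtm6 (0.76) and Golm1 (0.75). Without the 2 libraries farthest from the median these stood between 0.71 and 0.76.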

How the data were processed

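RNA of sorted microglia was made into single-end libraries with a stranded total RNA kit, per the labels' protocols. The deposited table holds raw counts per gene for 64 libraries. The submitters' processing notes name the build GRCm38, Salmon 1.5.2 and STAR 2.6.1d, with Trim Galore 0.6.7 for reads and bcl2fastq 2.20; which of them made the counts is not stated. Libraries were grouped by their labels, and the library sets were defined from these counts: ncRNA-poor under 1% on the noncoding transcripts, and above it deep over 15 M counts, shallow under 5.5 M and middle between. Counts were scaled by the trimmed mean method and filtered with filterByExpr (minimum count 10, minimum total 15), which left 18413 genes. 1 mean per group and set was fitted over all 64 libraries with edgeR 4.0.16 (R 4.3.3), quasi-likelihood test, two-sided, Benjamini-Hochberg threshold 0.05 over all genes. Differences of naive KO and Het were averaged over 3 sets, weighted by their library numbers. Standard errors are the fold change divided by the root of F, and intervals cover 95%. Summaries were made in Python 3.11.15. The edgeR fit was tested on simulated counts for naive KO minus Het only, and that simulation held no steps between library sets. Alternatives were DESeq2 1.42.0 and its size factors, no filter, pooled sets, single sets, a replicate block, sex, thinned counts, the compared libraries alone and leaving out each library, the last with the dispersion trend of the full fit. Named are the 10 members, Uqcrfs1, up to 4 called genes of each other list with the smallest p, and the 6 genes most like the members; Ccr2 was added after its values were seen. Members and lists were chosen with earlier results of these data known.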

Additional observations from a re-analysis of the deposited data

Results flagged for a closer look

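In groups of 4 to 7 libraries of 1 set, a library far from the others was looked for by Dixon's criterion in 110 tests over the 10 genes, and 9 stood out, where chance gives about 1 in 20. P2ry13 was low in naive Het replicate 11 of the middle set, at 615.11 CPM against 926.58 to 1028.3 in the other 6 libraries, and in repopulated KO replicate 1, at 1253.3 against 1631.8 to 1673.2. Naive Het replicate 9 of the middle set was high in 3 genes: Tmem119 (1481.9 CPM against 1017.5 to 1093.3), Selplg (1954.5 against 1363.7 to 1542.1) and Olfml3 (1898.5 against 1230.8 to 1495.6). Gpr34 was low in naive WT replicate 2, at 1253.1 CPM against 1513.2 to 1593.5. Siglech was high in repopulated KO replicate 4, at 641.67 CPM against 601.56 to 606.41, and Olfml3 was low in the same library, at 2173.2 against 2409.3 to 2445.3. Selplg was high in repopulated Het replicate 2, at 4706.5 CPM against 3879.3 to 3933.8.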

How the results depend on the processing

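The 10 genes were recomputed under each alternative processing, and the counts of genes passing that moved are given here. The share of all genes passing under each alternative is not given beside them, so these counts do not set the members apart from other genes. For naive KO minus Het, 2 became 1 with the ncRNA-poor set alone, 0 with the middle set alone, 0 with the deep set alone, 5 with DESeq2's size factors, 0 with pooling the sets, 4 with the replicate block, 5 with DESeq2, 2 to 5 with 1 library left out (highest without KO naive replicate 1). For naive KO minus WT, 1 became 8 with pooling the sets, 2 with DESeq2, 0 with the compared libraries alone, 0 with KO 1 to 4 and WT 1 to 4, 0 to 2 with 1 library left out (lowest without KO naive replicate 4). For naive Het minus WT, 0 became 7 with pooling the sets. For cuprizone KO minus Het, 2 became 1 with pooling the sets, 0 with the compared libraries alone. For cuprizone minus naive in Het, 2 became 1 with DESeq2's size factors, 0 with no filter on low counts, 8 with pooling the sets, 1 with the replicate block, 1 with sex as a covariate, 1 with DESeq2, 0 with the compared libraries alone, 0 with thinned counts, 0 to 3 with 1 library left out (lowest without Het cuprizone replicate 2). For cuprizone minus naive in KO, 0 became 2 with pooling the sets. For depletion minus naive in WT, 5 became 0 with pooling the sets. For depletion minus naive in Het, 4 became 1 with pooling the sets, 0 to 4 with 1 library left out (lowest without Het depletion replicate 2). For depletion minus naive in KO, 5 became 0 with pooling the sets, 2 with the compared libraries alone, 1 to 6 with 1 library left out (lowest without KO depletion replicate 2). For repopulation minus naive in WT, 1 became 0 with pooling the sets, 2 with the replicate block, 2 with DESeq2, 2 with the compared libraries alone, 1 to 2 with 1 library left out (highest without WT repopulation replicate 3). For repopulation minus naive in Het, 1 became 2 with DESeq2's size factors, 5 with pooling the sets, 2 with the replicate block, 2 with DESeq2, 6 with the compared libraries alone, 0 to 1 with 1 library left out (lowest without Het repopulation replicate 2). For repopulation minus naive in KO, 1 became 0 with the compared libraries alone, 0 to 1 with 1 library left out (lowest without KO naive replicate 1). For repopulation minus depletion in WT, 6 became 1 with pooling the sets. For depletion KO minus controls, 4 became 0 with pooling the sets, 0 to 4 with 1 library left out (lowest without KO depletion replicate 1). For repopulation KO minus WT, 3 became 0 with pooling the sets. For repopulation KO minus Het, 3 became 0 with pooling the sets. For old minus adult in Het, 9 became 0 with the compared libraries alone. For cuprizone response, KO minus Het, 0 became 1 with the replicate block, 1 with DESeq2, 0 to 1 with 1 library left out (highest without Het naive replicate 7). For repopulation response, KO minus WT, 0 became 2 with DESeq2. In the pooled fits, naive adult Het and naive KO each had 1 mean over libraries of 3 sets. Differences between these and groups of 1 set include the steps between sets. The WT, depletion, repopulation and cuprizone groups each lie in 1 set. Differences inside the ncRNA-poor set among WT, depletion and repopulation groups, and those between the cuprizone groups, hold no such step. All pooled tests share an estimate of spread that takes in the steps of the naive groups, and its part in the lost calls was not tested. The cause of the other moves was not tested, except that fits with fewer libraries or 1 set hold fewer samples. Over all the genes and comparisons, 10 values changed direction, all with the sets pooled: Sparc naive Het minus WT -0.68, Olfml3 naive Het minus WT -0.52, P2ry12 naive Het minus WT -0.52, Selplg naive Het minus WT -0.60, Tmem119 naive Het minus WT -0.99, Tmem119 depletion minus naive in Het 0.51, Tmem119 depletion minus naive in KO 0.014, Selplg repopulation minus naive in Het 0.75, Tmem119 repopulation minus naive in Het 1.02, Selplg repopulation minus naive in KO 0.057. Counting single gene values, DESeq2 added 13 calls and lost 1, sex as a covariate 1 and 1, the replicate block 11 and 1, and leaving out 1 library 30 and 45. The residuals of same-numbered libraries had median correlations of -0.02, 0.09, 0.02 and -0.02 in the ncRNA-poor, middle, deep and shallow sets. In the middle set the 6 such pairs stood at 0.04 to 0.11. The 36 other pairs there stood at -0.20 to 0.16, with a median of -0.04. In the deep set, groups of 2 libraries have mirrored residuals, so its 2 pairs hold 1 value and cannot decide. The number was not taken to pair libraries, and the replicate block could not be fitted for old against adult. For cuprizone against naive, with all libraries thinned to the smallest total, both calls in Het ended, and 0 genes passed in Het or KO. Thinning lowers the counts of nearly every library, and the part of depth in these calls was not tested. Thinning was not run for the other comparisons.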
